A study of Arabidopsis thaliana with 18 samples.

Results

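The comparison described here is the dependence of the leaf response to herbicide safeners on TGA transcription factors in Arabidopsis thaliana. It was chosen by experiment, as the 12 arrays of 4tga and Col0 plants among the 18 arrays of the series. The groups were safener treated 4tga (the quadruple mutant tga2tga3tga5tga6), mock treated 4tga, safener treated Col0 wild type and mock treated Col0, with 3 biological replicates each. The other 6 arrays, 3 of safener treated and 3 of mock treated sid2-2, entered the fit for its estimate of the spread and served as a separate set of arrays. All plants were 4 weeks old and grown on soil with 16 h of light per day, and RNA came from rosette leaves. Pots were sprayed with 875 µL of a formulation that held mefenpyr at 5 mM beside 7.2 mM of isoxadifen. Mock pots received the solvent DMSO in equal volume, and the labels do not say whether the emulsifier was in it too. The time between spraying and harvest is not stated in the labels. The 4tga mutant lacks 4 genes at once, so no value below belongs to 1 TGA factor.

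Safeners are agrochemicals that protect crops by raising the plant's own capacity to detoxify herbicides. TGA factors are basic leucine zipper proteins that bind promoters. They act with the co-activator NPR1 in the salicylic acid response, and class II members act with the GRAS protein SCL14 on genes that oxidise, conjugate and export foreign compounds. The sid2-2 mutant carries a defect in the isochorismate synthase that makes most pathogen-induced salicylic acid, while its TGA factors are intact.

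The deposited values were linear intensities with a median of 200 on each array, and a share of the values was blank. Of 22746 probe sets without array controls, between 14627 and 15935 had a listed value on each of the 12 arrays. The comparison covered the 14556 probe sets with at least 2 listed values in each of the 4 groups. Its measure, the interaction, is the log2 safener over mock difference in 4tga minus the same difference in Col0. A negative value means a smaller rise or a larger fall in 4tga. Calls are limma's moderated test at an adjusted p under 0.05, and p-values measure the spread between the 3 replicates of a group. Safener treated Col0 replicate 1 stood apart, with correlations of 0.979 to 0.983 to its own group. The genes deleted in 4tga were not named in the annotation used, so the genotype label was not checked on them. The leaf label was checked on photosynthesis genes. All 8 measured members were listed, among them PSAN, a photosystem I subunit, at 4214, 4145 and 3831 in safener treated 4tga and 3046, 3306 and 3188 in safener treated Col0. No member of that list had a called interaction. Nor did FMA of guard cells (0.062) or SWEET11 of phloem (−0.27), whose part in the results was not tested. In leaf RNA, fewer cells of a type and less RNA per cell cannot be told apart.

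A small group of genes was called as responding less to safener in 4tga than in Col0, among them auxin-inactivating, detoxifying and defence-related genes. Most genes raised at least 2-fold in Col0 were raised in 4tga too. Negative interactions were more widespread than the calls. Of 378 probe sets raised at least 2-fold in sid2-2, 82.8% had one, beside 53.8% of all tested. The response was called lower in 4tga for 62 probe sets, 0.426% of those tested, and higher for 6, 0.0412%, which is 0.467% in either direction. Without adjustment, 763 (5.24%) were lower and 395 (2.71%) higher at a p under 0.05. Of the 62, 60 were raised by safener in Col0, where 14.9% of all probe sets were raised. In 4tga the same 62 comprised 16 that were raised, 38 that did not pass the test and 8 that were lowered, where 8.92% of all probe sets were raised and 10.4% lowered. These counts share their arrays with the interaction that chose the probe sets and are given as a description. The median log2 safener response of the 62 was 0.10 in 4tga and 1.19 in Col0. Of the 433 probe sets raised at least 2-fold in Col0 (2.97% of those tested), 385 were raised in 4tga too and 48 did not pass the test there. At least 2-fold rises in 4tga were found for 212 of these 433, beside 1.58% of all tested.

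The count depended on the arrays. It lay between 27 (without 4tga mock replicate 3) and 65 (without safener treated Col0 replicate 1) when single arrays of the 12 were left out. Without sid2-2 mock replicate 3, which stands apart in its group and touches only the estimate of the spread, the count was 103. Of the 33 named calls, 7 were kept under every alternative in which they were tested and 16 were lost under 10 or more. The closing section gives them by name.

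**Figure D1:**
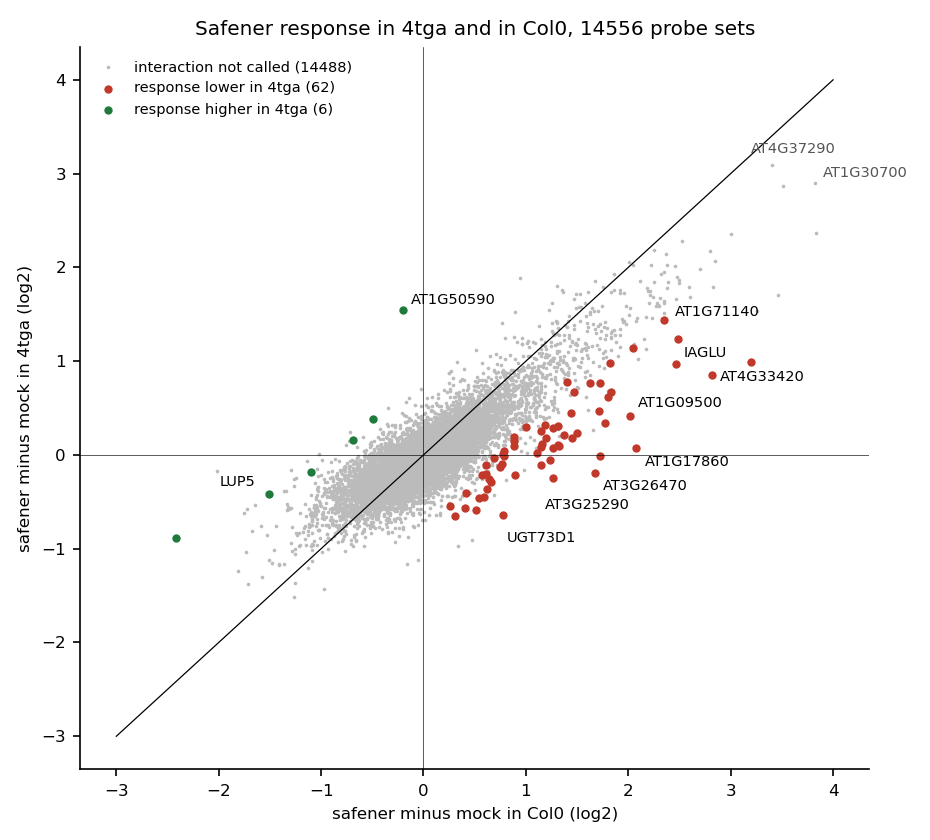
Each point is 1 of 14556 probe sets, with the log2 difference of safener and mock in 4tga on the vertical axis and in Col0 on the horizontal axis. The diagonal marks equal responses. The 62 red points, lower in 4tga, lie below it on the side of genes raised in Col0, and the 6 green points lie above it.

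Among genes with roles at the cell surface and in defence, AT1G17860, of the Kunitz trypsin inhibitor family, showed the most negative interaction of the named genes. Its intensities were 174, 174 and 139.9 in safener treated 4tga and 142, 154 and 165 in mock treated 4tga, against 1113, 760.1 and 784 in safener treated Col0 and 135, 233 and 279 in mock treated Col0. The ranges overlapped in 4tga and were apart in Col0. The log2 response was 0.078 in 4tga and 2.08 in Col0, an interaction of −2.0 ± 0.345 (SE, n = 3 each, adjusted p = 0.00854).

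AT4G33420, a class III peroxidase, rose in both genotypes. It had 32.4, 36.0 and 27.7 in safener treated 4tga and 17.0, 16.5 and 19.8 in mock treated 4tga, against 267, 207 and 309 in safener treated Col0 and 26.3, 45.4 and 41.0 in mock treated Col0. Safener raised it in both genotypes, by 0.85 on the log2 scale in 4tga and by 2.82 in Col0, and the interaction was −1.96 ± 0.302 (adjusted p = 0.00389). The treated mutant arrays lay within the range of the mock treated wild type arrays, and the mock levels themselves were lower in 4tga (log2 difference −1.05).

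AT3G26470 encodes a protein with the RPW8 domain known from powdery mildew resistance. Its intensity was 51.3, 52.8 and 57.2 in safener treated 4tga and 62.4, 62.5 and 59.6 in mock treated 4tga, against 519, 446 and 452 in safener treated Col0 and 153, 159.9 and 133 in mock treated Col0. Every Col0 array lay above every 4tga array. The response was −0.19 in 4tga, which did not pass the test, and 1.67 in Col0, and the interaction of −1.86 ± 0.206 had the lowest adjusted p of the named genes, 0.000232.

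Further genes of this kind had smaller differences. AT3G47380, a pectin methylesterase inhibitor family member, had 138, 124 and 130.1 in safener treated 4tga and 130.5, 122 and 137 in mock treated 4tga, against 303, 230.3 and 274 in safener treated Col0 and 177, 156 and 138 in mock treated Col0. The interaction was −0.77 ± 0.152 (adjusted p = 0.0259). AT5G07870, of the HXXXD acyltransferase family, and AT3G13590, with a Cys/His-rich C1 domain, had interactions of −0.71 and −0.88. Neither response passed the test in 4tga, while both genes were raised in Col0.

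**Figure D2:**
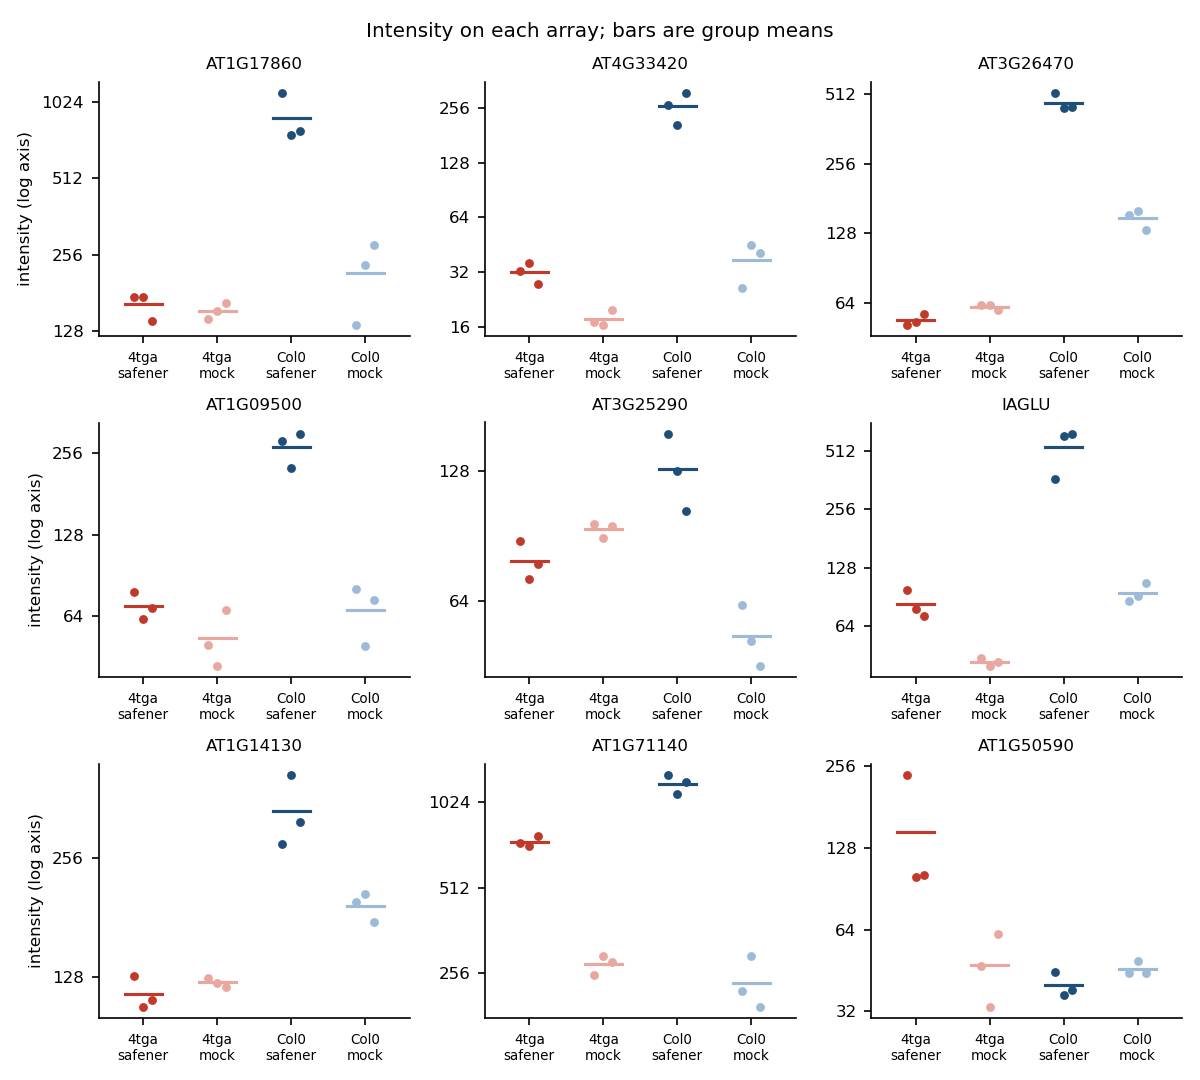
Intensity on each array (log axis) for 9 genes with a called interaction, with 4tga in red and Col0 in blue, safener left of mock in each genotype; bars are means of 3 arrays. In 8 of the panels the safener treated Col0 points are above the safener treated 4tga points, and in the panel of AT1G50590 they are below.

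Both IAGLU and AT1G14130, which inactivate the growth hormone auxin, responded less in 4tga. IAGLU, the glucosyltransferase that conjugates indole-3-acetic acid to glucose, had 98.6, 78.0 and 72.1 in safener treated 4tga and 43.7, 40.0 and 41.8 in mock treated 4tga. In Col0 it had 368, 612 and 624 with safener and 86.3, 91.2 and 106 with mock. All 6 mutant arrays were below the highest mock treated wild type array, although safener raised the gene in both genotypes. The responses were 0.97 in 4tga and 2.46 in Col0 (log2), and the interaction was −1.49 ± 0.233 (adjusted p = 0.00427).

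AT1G14130 is a dioxygenase that oxidises auxin. It stood at 129, 108 and 112 in safener treated 4tga and 128, 124 and 121 in mock treated 4tga, against 277, 414 and 315 in safener treated Col0 and 198, 207 and 177 in mock treated Col0. Only Col0 showed a rise that passed the test, and the interaction was −0.87 ± 0.189 (adjusted p = 0.0460), a call lost when any of 11 of the 12 arrays was left out and with only those 12 in the fit (adjusted p = 0.0515). UGT74D1, which glucosylates oxidised auxin, had a negative interaction that was not called. It had 48.5, 58.6 and 52.9 in safener treated 4tga and 64.9, 66.5 and 84.3 in mock treated 4tga, against 176, 315 and 262 in safener treated Col0 and 127, 164 and 167 in mock treated Col0. Its interaction was −1.11, with a 95% interval from −1.69 to −0.54 (adjusted p = 0.0967). Without safener treated Col0 replicate 1 it was called, at −1.35 (adjusted p = 0.0162). UGT74D1 was also called with array weights (adjusted p = 0.00126) and with a replicate block (adjusted p = 0.0441).

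The auxin list was assembled after the values of IAGLU had been seen. Of its 15 genes, 10 were named and 5 tested, with 2 called lower and none higher, beside 0.426% of all probe sets called lower. IAGLU itself is among the 2, so the count was partly set when the list was made and is no separate support. The 2 tested GH3 enzymes, which join auxin to amino acids, had values of 0.50 for GH3.3 and −0.21 for WES1, and neither passed the test. AT3G25290, of an auxin-responsive membrane protein family, was raised in Col0 and had no called response in 4tga. It had 88.2, 72.2 and 78.2 in safener treated 4tga and 96.8, 89.6 and 95.6 in mock treated 4tga, against 156, 128 and 104 in safener treated Col0 and 62.8, 51.9 and 45.5 in mock treated Col0. Here the mock level was higher in 4tga by 0.83 on the log2 scale, so the interaction of −1.51 (adjusted p = 0.00635) went with a raised starting level.

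The genes best known as targets of SCL14 and TGA factors behaved in more than one way. Of 25 genes on this list, 11 were named in the annotation and 8 were tested, with 4 called lower and none higher. The background of lower calls was 0.426%. The median interaction of the 8 was −0.66, beside −0.02 over all probe sets. Safener raised 3 of the 8 in 4tga and 7 in Col0, beside 8.92% and 14.9% of all probe sets. It lowered 1 of the 8 in 4tga, close to the 10.4% of all probe sets lowered there.

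In a first group the response itself was called lower in 4tga. AT1G09500, a cinnamyl alcohol dehydrogenase-like reductase, had 78.7, 62.7 and 69.0 in safener treated 4tga and 50.0, 42.1 and 67.5 in mock treated 4tga, against 283, 226 and 302 in safener treated Col0 and 80.5, 49.6 and 73.4 in mock treated Col0. The mock ranges of the genotypes overlapped, and the treated ranges did not. The interaction was −1.59 ± 0.272 (adjusted p = 0.00801).

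AT3G04000, an aldehyde reductase, also had no called response in 4tga, with 161, 169 and 170.3 in safener treated 4tga and 151, 121 and 141 in mock treated 4tga. In Col0 it had 398, 406 and 429 with safener and 165, 177 and 169 with mock (interaction −0.99, adjusted p = 0.0460), a call lost when any of 11 of the 12 arrays was left out. UGT73C1, a glucosyltransferase of cytokinins and other acceptors, went opposite ways in the 2 genotypes. It was lowered in 4tga, at 29.9, 30.7 and 27.1 with safener and 37.1, 40.7 and 41.7 with mock, and raised in Col0, at 57.7, 56.0 and 62.3 with safener and 46.0, 31.7 and 40.2 with mock. Its interaction was −1.04 ± 0.188 (adjusted p = 0.0142).

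AT5G61820, a Nod19-like protein, was lower in the mutant at the start and showed no called rise there. It had 956, 797 and 909 in safener treated 4tga and 877, 753 and 957 in mock treated 4tga, against 2716, 2840 and 2686 in safener treated Col0 and 1669, 1638 and 1483 in mock treated Col0. The mock difference was −0.89 and the interaction −0.74 (adjusted p = 0.0321), a call lost when any of 9 of the 12 arrays was left out.

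In a second group the level was far lower in 4tga, but the ratio of safener to mock was not called different. AT4G13180, a short-chain reductase, had 72.9, 69.6 and 74.1 in safener treated 4tga and 45.0, 50.2 and 50.8 in mock treated 4tga, against 892, 1322 and 1314 in safener treated Col0 and 675, 488 and 639 in mock treated Col0. Mock treated 4tga thus held 0.0817 times the level of mock treated Col0. The interaction was −0.39, with a 95% interval from −0.80 to 0.023 (adjusted p = 0.656).

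UGT73B5, a stress-responsive glucosyltransferase, had 117, 89.1 and 107 in safener treated 4tga, against 286, 485 and 387 in safener treated Col0. Its mock levels were 38.7, 38.0 and 46.5 in 4tga and 94.7, 111 and 93.8 in Col0, and its interaction was −0.58 (interval −1.03 to −0.13, adjusted p = 0.431). AT4G01870, of the TolB-related family, had 1721, 1288 and 1600 in safener treated 4tga and 501, 355 and 539.8 in mock treated 4tga, against 3070, 4380 and 4318 in safener treated Col0 and 1384, 1768 and 1400 in mock treated Col0. Its log2 interaction was positive, 0.37 (interval −0.12 to 0.87), and not called.

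The scale matters for these genes, because the interaction compares ratios. In intensity units, the mean rise of AT4G01870 was 1071 in 4tga and 2406 in Col0, and that of UGT73B5 was 63.3 in 4tga and 286 in Col0. For AT4G13180 it was 23.5 in 4tga and 575 in Col0. All 3 safener treated mutant arrays lay below all 3 safener treated wild type arrays for each of these genes. AT2G04050, a MATE efflux carrier on the same list, ran the other way in level, with means of 1207 ± 58.2 in safener treated 4tga and 623 ± 54.1 in safener treated Col0 (SD, n = 3 each). Its interaction was −0.0046 (interval −0.49 to 0.48).

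The remaining 3 named genes had too few listed values in the mutant to be tested. GSTU25, a tau class glutathione transferase, was not listed on any of the 6 arrays of 4tga. In Col0 it had 528, 342 and 379 with safener and 151, 219 and 124 with mock. UGT73B4 was not listed in 4tga either and had 132, 168 and 164 in safener treated Col0, with 42.8 on the 1 mock treated Col0 array that listed it. AER, the alkenal reductase that reduces reactive carbonyls, was listed on 1 safener treated 4tga array at 66.2 and on 2 mock treated 4tga arrays at 71.4 and 77.5. In Col0 it had 563, 627 and 605 with safener and 319.6, 276 and 262 with mock, so all its Col0 values lay above all its listed 4tga values. GSTU22 and UGT73B1 were listed on the 6 Col0 arrays and on none of 4tga. Blanks hold no fold change, and these genes are absent from the counts above.

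**Figure D3:**
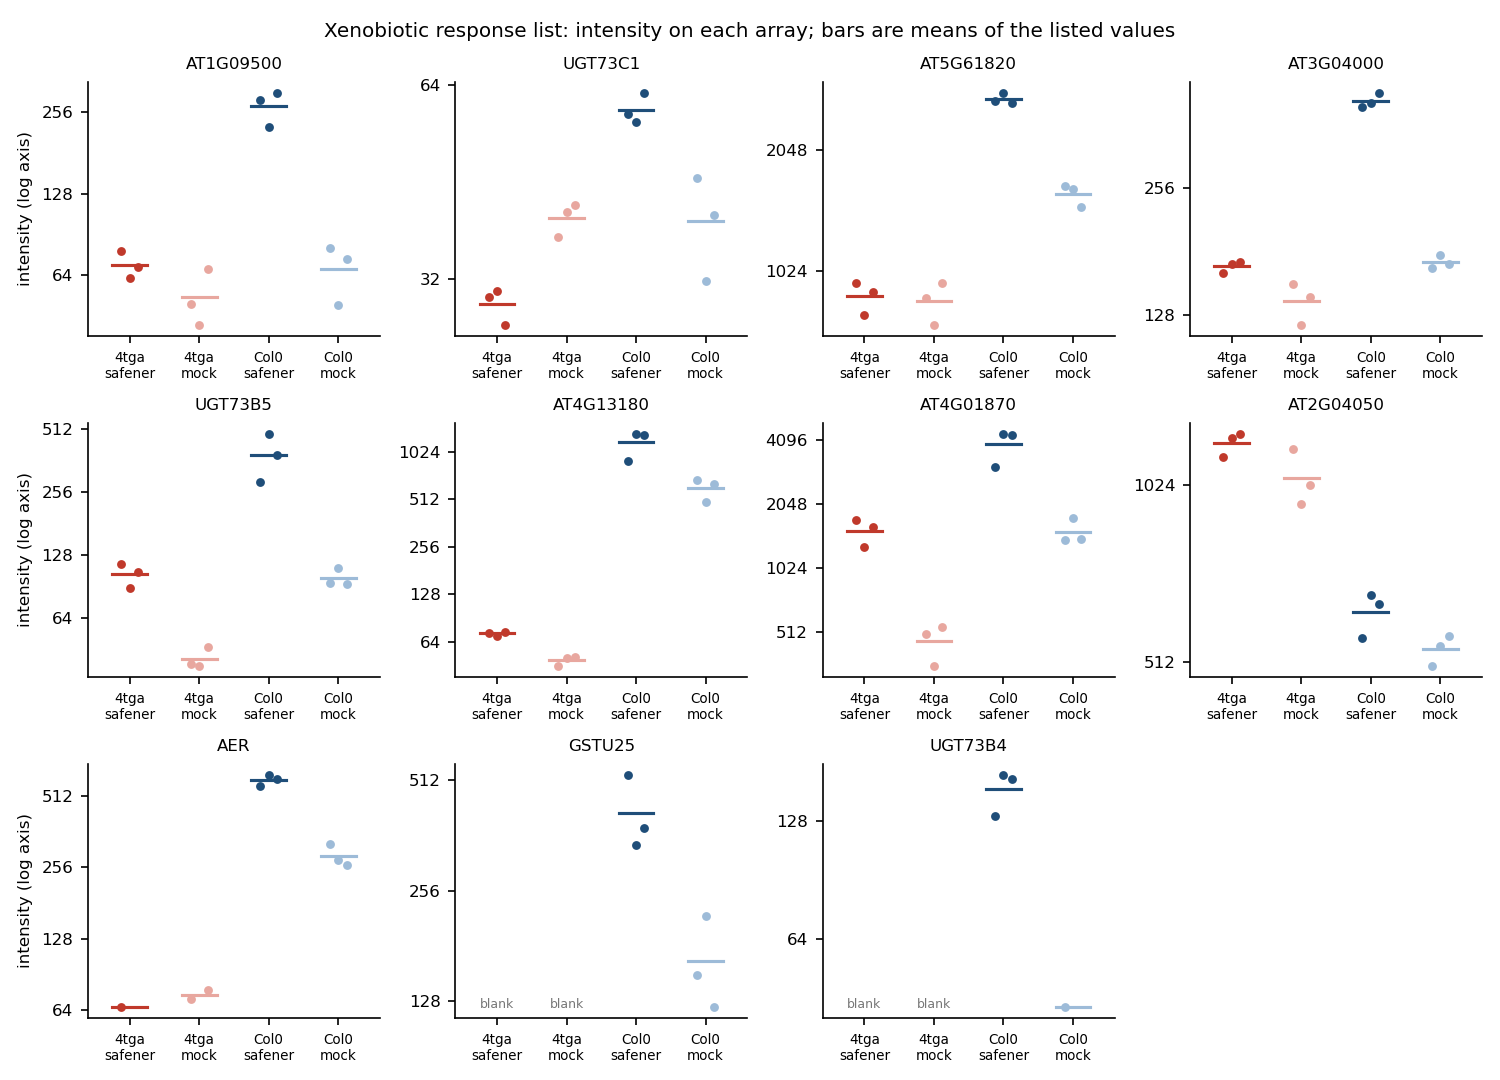
Intensity on each array (log axis) for the 11 named genes of the SCL14 and TGA list, safener left of mock and 4tga (red) left of Col0 (blue); bars are means of the listed values and "blank" marks groups without one. The first 4 panels are the genes with a called interaction, the next 4 were tested and not called, and the last 3 were not tested.

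Conjugating enzymes and transporters outside that list were also among the called genes. UGT73D1, a glucosyltransferase of the same family, had 27.0 and 23.7 on the 2 safener treated 4tga arrays that listed it and 45.7, 35.1 and 38.0 in mock treated 4tga. Col0 arrays gave 183, 245 and 257 with safener and 113, 153 and 132 with mock. The fit dropped the blank array, and the interaction was −1.41 ± 0.273 (adjusted p = 0.0259). Safener lowered this gene in 4tga and raised it in Col0.

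OCT5, an organic cation transporter, was listed at 35.6 and 28.3 on 2 safener treated 4tga arrays, the other being blank and dropped, and at 36.9, 30.0 and 35.9 in mock treated 4tga. The Col0 values were 416, 481 and 515 with safener and 219, 203 and 214 with mock. The mock difference of −2.64 was the most negative among the named genes with a called interaction, and the interaction added −1.25 ± 0.167 (adjusted p = 0.00142). AT4G19880, of the glutathione S-transferase family, rose in both genotypes, by 0.29 in 4tga and 1.00 in Col0 (log2). It had 468, 425 and 458 in safener treated 4tga and 1280, 1456 and 1567 in safener treated Col0.

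AT1G71140, a MATE efflux carrier, rose in both genotypes, by less in 4tga. It had 737, 717 and 779.7 in safener treated 4tga and 253, 293 and 280.3 in mock treated 4tga, against 1279, 1095 and 1210 in safener treated Col0 and 221, 295 and 195 in mock treated Col0. The mock ranges overlapped, and the interaction was −0.92 ± 0.194 (adjusted p = 0.0372), a call lost when any of 10 of the 12 arrays was left out. It was the 1 called gene among 16 tested MATE carriers, a list also assembled after values had been seen, whose median interaction was 0.003. Over all probe sets, 0.426% were called lower, and the count of a list made this way is no separate support. AT1G79710 and AT5G10820, both of the major facilitator superfamily, had interactions of −1.06 and −0.72, the first with 1 blank mock treated 4tga array dropped.

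Among glucosyltransferases with a UGT symbol, which leaves out IAGLU, 27 were tested. Of these, 2 were called lower (UGT73C1 and UGT73D1) and none higher, beside 0.426% and 0.0412% of all probe sets. At an unadjusted p under 0.05, 6 were lower and 3 higher, beside 5.24% and 2.71% of all probe sets. The median interaction was 0.02. UGT76B1, which glucosylates isoleucic acid and salicylic acid, had 97.6, 107 and 103 in safener treated 4tga and 109, 70.8 and 78.6 in mock treated 4tga, against 1456, 1521 and 1508 in safener treated Col0 and 630.2, 614 and 565 in mock treated Col0. Its mock level was lower in 4tga (log2 difference −2.83), and its interaction of −1.03 was not called (interval −1.61 to −0.46, adjusted p = 0.142). It was called with only the 12 arrays in the fit (adjusted p = 0.0209) and without sid2-2 mock replicate 3 (adjusted p = 0.00461). UGT76B1 was also called with 16 added before log2 (adjusted p = 0.0439) and with array weights (adjusted p = 0.00121). GRX480, a glutaredoxin known to bind TGA factors, had 66.3, 68.9 and 52.0 in safener treated 4tga and 70.9, 62.1 and 67.6 in mock treated 4tga. Its Col0 values were 375, 402 and 356 with safener and 245, 249.8 and 197 with mock (interaction −0.83, adjusted p = 0.133, or 0.0243 without sid2-2 mock replicate 3). With array weights the adjusted p of GRX480 was 0.00798. Both genes were raised in sid2-2, by 1.65 and 1.17 on the log2 scale, from starting levels that were below Col0 there too. Mean mock levels were 88.4 in sid2-2 and 603 in Col0 for UGT76B1, and 94.2 and 231 for GRX480. With safener the means were 262 in sid2-2 and 1495 in Col0 for UGT76B1, and 207 and 378 for GRX480.

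Starting levels divided the called genes. Of the 62 probe sets, 22 had a lower mock level in 4tga (1.78% of all tested), 7 a higher one (6.11% of all tested) and 33 neither. These differences share the mock arrays with the interaction. With safener, 58 were lower in 4tga (4.13% of all tested), none was higher (8.83% of all tested) and 4 did not pass the test. The safener treated arrays are also part of the interaction that chose the 62, so these counts are given as a description. Among the 29 named genes, 11 had a lower mock level and 5 a higher one.

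AT1G72920, a TIR domain protein of the kind found in immune receptors, is a case of a higher mock level. It had 98.0, 97.4 and 118 in safener treated 4tga and 126, 144 and 132 in mock treated 4tga, against 87.8, 92.5 and 89.2 in safener treated Col0 and 71.8, 55.5 and 50.2 in mock treated Col0. All 6 mutant arrays exceeded all 6 wild type arrays, the mock difference was 1.19, and the interaction was −0.98 (adjusted p = 0.0201). AT1G33600, a leucine-rich repeat protein, had 914, 877 and 1148 in safener treated 4tga and 497, 474 and 504 in mock treated 4tga. Intensities in Col0 were 1070, 1214 and 1121 with safener and 353, 337 and 275 with mock. The difference of its treated levels did not pass the test, and the interaction of −0.84 went with a mock level higher by 0.62. PGM, AT4G37445 and AT3G25290 were the other named genes with a higher mock level in 4tga. PGM, a phosphoglycerate mutase family gene, was lowered by safener in 4tga (log2 response −0.41) and raised in Col0 (0.41).

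**Figure D4:**
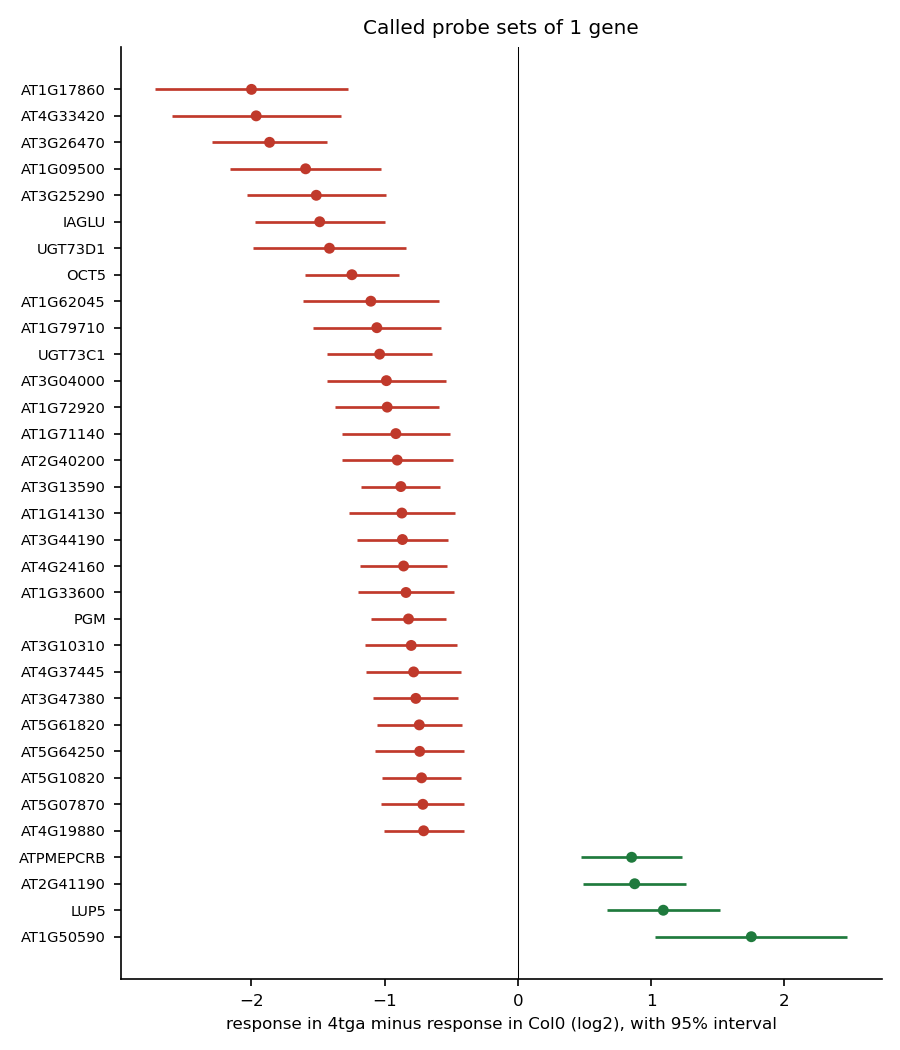
Interaction (log2 response in 4tga minus log2 response in Col0) with its 95% interval for the 33 called probe sets that name 1 gene, from the most negative at the top to the most positive at the bottom. The 29 red genes are lower and the 4 green genes higher in 4tga, from −2.0 for AT1G17860 to 1.75 for AT1G50590.

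Some of the called genes still rose in the mutant. Of the 29 named genes, 7 were still raised in 4tga: AT4G33420, IAGLU, AT1G71140, AT2G40200, AT4G24160, AT1G33600 and AT4G19880. AT2G40200, a bHLH transcription factor, had 41.1, 47.0 and 41.4 in safener treated 4tga and 18.4, 18.2 and 22.3 in mock treated 4tga, against 81.9, 65.8 and 74.9 in safener treated Col0 and 16.1, 19.1 and 18.7 in mock treated Col0. AT4G24160, a lipid-metabolising alpha/beta hydrolase, had log2 responses of 0.77 in 4tga and 1.62 in Col0 (interaction −0.86, adjusted p = 0.0142). Safener lowered 4 of the 29 in 4tga: UGT73D1, UGT73C1, PGM and AT3G10310, a kinesin-type gene at −0.80 with blanks on 2 arrays dropped. The remaining 18 did not pass the test in 4tga. Among them, AT3G44190, an FAD/NAD(P)-binding oxidoreductase, had log2 responses of 0.32 in 4tga and 1.18 in Col0, on mock levels with overlapping ranges. AT5G64250, a 2-nitropropane dioxygenase-like gene, had responses of 0.15 in 4tga and 0.89 in Col0.

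The 6 probe sets with a higher response in 4tga were mostly genes that safener lowered in Col0 (5 of 6, beside 17.5% of all tested), and 4 of the 6 name a gene. This count too shares its arrays with the interaction that chose the probe sets. AT1G50590, a pirin-like cupin protein, was the 1 named gene raised in 4tga without a called change in Col0. It had 237, 99.7 and 102 in safener treated 4tga and 46.9, 33.3 and 61.8 in mock treated 4tga, against 44.5, 36.8 and 38.4 in safener treated Col0 and 44.2, 49.1 and 44.3 in mock treated Col0. All 3 treated mutant arrays exceeded the other 9, the first by the most. The interaction was 1.75 ± 0.344 (adjusted p = 0.0244). With only the 12 arrays in the fit it was not called (adjusted p = 0.0695).

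LUP5, a triterpene synthase, had 118, 77.8 and 83.7 in safener treated 4tga and 115, 131 and 121 in mock treated 4tga, against 68.6, 71.6 and 65.3 in safener treated Col0 and 172, 228 and 188 in mock treated Col0. The gene fell in Col0 by 1.51 on the log2 scale, and its interaction was 1.09 ± 0.201 (adjusted p = 0.0201). ATPMEPCRB, a pectin methylesterase, and AT2G41190, of an amino acid transporter family, had interactions of 0.85 and 0.88. ATPMEPCRB had 51.8, 40.0 and 42.9 in mock treated 4tga and 191, 202 and 176 in mock treated Col0, a lower starting level in the mutant, and its response did not pass the test in 4tga.

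Several of the strongest safener responses had no called interaction. Among probe sets of 1 gene without a called interaction, 102 were raised at least 2-fold in both genotypes, and 2 called genes above, AT1G71140 and AT2G40200, were so too. The 7 berberine bridge enzyme-like oxidases were raised in 4tga in 6 cases and in Col0 in all 7, where 8.92% of all tested were raised in 4tga and 14.9% in Col0. By limma 0 of 7 had a called interaction, with 1 lower at an unadjusted p under 0.05, and a count of 0 is close to the background of 0.426%. All 7 had negative values, beside 53.8% of all tested and 86.5% of the 2173 probe sets raised in Col0. Their median interaction was −0.29, beside −0.22 for the probe sets raised in Col0, a set that shares its arrays with the interaction. AT1G30700 had 374, 277 and 302 in safener treated 4tga and 53.9, 30.7 and 45.6 in mock treated 4tga, against 453, 567 and 544 in safener treated Col0 and 30.1, 46.2 and 35.4 in mock treated Col0. Its log2 responses were 2.90 in 4tga and 3.82 in Col0, and the interval of the difference ran from −1.51 to −0.35 (adjusted p = 0.235). AT1G26380, an oxidase of the same family, stood at 1908, 1643 and 1800 in safener treated 4tga and 886, 1242 and 1223 in safener treated Col0, with an interval of the interaction from −0.80 to 0.10.

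PRA1.B4, a membrane trafficking protein of the prenylated Rab acceptor family, had the smallest difference of responses among the 4 genes named for being raised in both, 1.76 in 4tga and 1.86 in Col0. The interval of its difference ran from −0.43 to 0.23. Both WRKY6 and WRKY22, stress-related transcription factors, were raised in both genotypes, with interactions of −0.17 and −0.15 that were not called.

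The stress peptide genes were all raised in both genotypes (4 of 4 tested, beside 8.92% of all probe sets in 4tga and 14.9% in Col0), and their interactions spread widely without a call, with 2 lower and 1 higher at an unadjusted p under 0.05. AT2G32190, of the cysteine-rich transmembrane CYSTM family, had 177, 186 and 221 in safener treated 4tga and 67.7, 43.5 and 71.5 in mock treated 4tga, against 725, 423 and 454 in safener treated Col0 and 44.5, 56.9 and 41.4 in mock treated Col0. The interaction was −1.76 ± 0.414 (adjusted p = 0.0748). It was called with only the 12 arrays in the fit (adjusted p = 0.0170), without sid2-2 mock replicate 3 (0.00800) and without 4tga mock replicate 2 (0.0482). AT2G32190 was also called with 16 added before log2 (adjusted p = 0.0447) and with array weights (adjusted p = 0.00154). AT2G23270, a PIP family signal peptide precursor, had the opposite sign, 0.95 (adjusted p = 0.158). It had 676, 495 and 676 in safener treated 4tga and 247, 178 and 209 in safener treated Col0. PDF1.2, a defensin gene of the jasmonate and ethylene response, was far higher in 4tga under both treatments. It had 3176, 2597 and 2331 in safener treated 4tga and 2142, 2918 and 2963 in mock treated 4tga, against 846, 299 and 523 in safener treated Col0 and 258, 226 and 277 in mock treated Col0. Its response was called in Col0 (1.01) and not in 4tga (0.018), and the interaction of −0.99 (interval −1.82 to −0.16, adjusted p = 0.501) was not called.

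No interaction was called by limma in 6 tau glutathione transferases, 12 cytochromes P450, 5 WRKY factors, 10 ATG autophagy genes, 10 beta-glucosidases, 8 photosynthesis genes or 3 heat shock genes. In lists of this size, counts of 0 are close to the background of 0.426% lower and 0.0412% higher calls. The median interactions of these lists were −0.18, −0.09, −0.09, −0.14, −0.04, 0.10 and −0.52, beside −0.02 over all probe sets. At an unadjusted p under 0.05, 2 P450, 2 ATG and 2 heat shock genes were lower, 1 photosynthesis gene was higher, and none of the other 3 lists passed. Over all probe sets, 5.24% were lower and 2.71% higher at that level. ATG8B was called lower without sid2-2 mock replicate 3 (adjusted p = 0.0360), and with array weights ATG8B (0.00730), ATG8H (0.0112), AT5G37670 of the heat shock list (0.0165) and CYP71B26 (0.0322) were called lower. Of the 10 ATG genes, 9 had a negative value, beside 53.8% of all tested. ATG8H, an autophagosome protein, was raised in both genotypes, at 184, 183 and 188 in safener treated 4tga and 323, 365 and 411 in safener treated Col0, with an interaction of −0.45 (interval −0.84 to −0.062).

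The sid2-2 arrays gave a set of safener genes whose fold changes did not use the 12 arrays of the comparison. The filter for listed values and the spread in the test did use those 12. In turn, the sid2-2 arrays entered the interaction only through the shared spread. In sid2-2, 378 probe sets tested in the comparison were raised at least 2-fold, 2.62% of those tested. Their median log2 response was 1.03 in 4tga and 1.33 in Col0, and 1.34 in sid2-2 itself. The median interaction was −0.35 and 313 of 378 (82.8%) were negative, beside −0.02 and 53.8% over all tested. Of the 378, 28 (7.41%) were called lower and none higher, beside 0.426% and 0.0412% of all tested. The 139 probe sets lowered at least 2-fold in sid2-2 had the opposite tendency, with a median interaction of 0.27 and 15.1% negative. Of these 139, 1 was called higher and none lower. The absence of higher calls among the 378 and of lower calls among the 139 is close to those backgrounds. Of the 62 called lower, 56 were raised in sid2-2 (13.2% of those tested there), 5 did not pass the test and 1 was lowered (20.4% of those tested there).

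**Figure D5:**
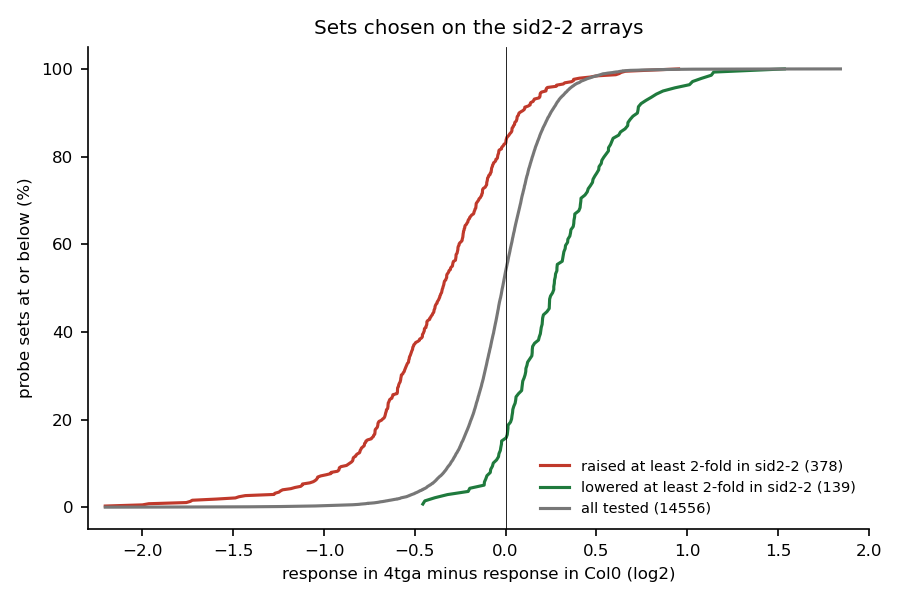
Cumulative share of probe sets (%) at or below each interaction value (log2) for the 378 raised and the 139 lowered at least 2-fold in sid2-2, beside all 14556 tested. The curve of the raised set lies left of that of all tested and crosses 0 near 83%, and the curve of the lowered set lies right of it.

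Probe sets without an entry in the annotation made up 31 of the 62 called lower, with interactions from −2.20 to −0.62 and a median of −1.10, so the named genes cover only part of the response. Probe sets of several genes added 2. Of the 62, 31 differed by at least 2-fold and 56 were listed on all 12 arrays. In 60 of 62, the 3 safener treated Col0 arrays lay above the 3 mock treated ones, as in 20.0% of all tested. In 24, the same held for the 4tga arrays, as in 17.4% of all tested. In 59, the safener treated Col0 arrays lay above the 3 safener treated 4tga arrays, as in 13.0% of all tested. These 3 counts come from the arrays that chose the 62 probe sets, so they describe them and are no separate support. At the threshold, AT1G62045 was the last named gene inside, at −1.10 ± 0.243 (adjusted p = 0.0494), and the first outside was an unnamed probe set at −0.72 ± 0.160 (adjusted p = 0.0514).

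Further probe sets stayed outside the test because of blanks. On all 3 safener treated Col0 arrays and none of the other 9, 9 probe sets were listed, beside 5 for safener treated 4tga, 20 for mock treated 4tga and 4 for mock treated Col0. Among the 6 named of these 9 were WRKY42, a WRKY factor, and AT5G16980, a gene of the alkenal reductase family at 47.0, 56.1 and 42.7. Of the probe sets that were not tested, 81 were listed on all 3 safener treated 4tga arrays and on no safener treated Col0 array, and 42 the other way round. Probe sets were listed on all 6 arrays of 4tga and none of Col0 in 14 cases, and on all 6 of Col0 and none of 4tga in 12.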

How the data were processed

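Affymetrix ATH1 arrays were used, 1 per sample. For every probe set, the authors deposited a linear intensity per array. RMA appears, with no version, in the submitters' processing notes. Each array's median was 200, and 29.9% to 35.7% of the values on the 12 arrays of 4tga and Col0 were blank. How the blanks were made is not stated.

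Here, listed intensities were converted to log2 without rescaling, blanks stayed missing, and 64 array controls of 22810 probe sets were left out. Array annotation named 1 gene for 13513 probe sets, several for 503 and none for 8730, and for a listed gene with several probe sets the brightest was used. In R 4.3.3, limma 3.58.1 (lmFit, contrasts.fit, eBayes) fitted the means of all 6 groups to 18 arrays, and p-values were adjusted by Benjamini-Hochberg over 14556 probe sets. On simulated data of that size, 83% of the probe sets changed by a log2 of 1 and 100% of those changed by 2 were called, with 12 false among 195 calls. The simulation changed 100 probe sets at each size and gave all arrays the same spread for a probe set. The real arrays were uneven, with quality weights from 0.215 to 5.45, so these shares need not hold for them. The number of arrays limits the precision.

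The genes and lists were chosen with earlier results of these data known. Named were the 14 most negative and 10 most positive called probe sets of 1 gene listed on all 12 arrays, up to 4 of lowest adjusted p per list and up to 4 raised at least 2-fold in both genotypes. In addition, 15 called genes were named after their values were seen. The lists of auxin inactivation and MATE carriers were added after results were seen. The 4 targeted TGA genes and the lists for camalexin, flowers and senescence had no member in the annotation, and promoter motifs were not analysed here. Of 18 comparisons of same-numbered arrays between groups, 4 had correlated deviations above 0.1 (range over the 18, −0.355 to 0.262). The labels state no pairing, so replicate numbers were not used as pairs. Alternatives covered the arrays in the fit, blanks, low values, scale, normalization, variance model, weights, a replicate block and single arrays left out.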

Additional observations from a re-analysis of the deposited data

Results flagged for a closer look

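For 33 named genes the safener response differed between 4tga and Col0 by the test of the difference itself. They are given here by how firmly that call stood when the processing or the set of arrays was changed, with the interaction (log2 response in 4tga minus that in Col0) after each name.

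Calls of AT4G33420 (−1.96), AT3G26470 (−1.86), AT1G09500 (−1.59), AT3G25290 (−1.51), IAGLU (−1.49), AT3G13590 (−0.88) and PGM (−0.82) were kept under every alternative in which the gene was tested. A single alternative removed the calls of AT1G17860 (−2.0) and OCT5 (−1.25): with blanks set to each array's lowest listed value and no filter, their adjusted p was 0.0590 and 0.431. UGT73C1 (−1.04) lost its call without 4tga mock replicate 3 (adjusted p = 0.0530). AT4G24160 (−0.86) lost it without safener treated 4tga replicate 2 (adjusted p = 0.0513) and without safener treated Col0 replicate 3 (adjusted p = 0.0504).

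The other calls rested on more of the arrays. Of the 12 single arrays of 4tga and Col0, the number whose removal ended the call differed by gene. It was 4 for LUP5 (1.09). It was 6 for UGT73D1 (−1.41) and AT3G44190 (−0.87). It was 7 for AT1G72920 (−0.98), AT3G10310 (−0.80), AT5G10820 (−0.72) and AT1G50590 (1.75). It was 8 for AT3G47380 (−0.77). It was 9 for AT1G79710 (−1.06), AT1G33600 (−0.84), AT5G61820 (−0.74) and AT2G41190 (0.88). It was 10 for AT1G62045 (−1.10) and AT1G71140 (−0.92). It was 11 for AT3G04000 (−0.99), AT2G40200 (−0.91), AT1G14130 (−0.87), AT5G64250 (−0.74), AT5G07870 (−0.71), AT4G19880 (−0.71) and ATPMEPCRB (0.85). It was 12 for AT4G37445 (−0.78). With only those 12 arrays in the fit, AT1G50590 (adjusted p = 0.0695), AT1G14130 (0.0515), AT3G47380 (0.0575) and AT3G10310 (0.0542) were not called. Highest adjusted p over all alternatives ran from 0.0597 for AT3G44190 to 0.921 for AT1G79710, a gene with a blank among the 12 arrays. No interaction of a called gene changed sign under any alternative tried.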

How the results depend on the processing

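The 62 lower and 6 higher calls, and the 60 lower calls among probe sets raised in Col0, stayed within 1.5 times of these counts with only the 12 arrays in the fit, with other handling of blanks and low values, with 16 added before log2, with quantile normalization, with centring and with another variance model, at 50 to 75 lower and 4 to 7 higher. Weighting arrays by quality gave 409 lower, 127 higher and 370 among probe sets raised in Col0. Weights ran from 0.215 (sid2-2 mock replicate 3) to 5.45 (sid2-2 mock replicate 2). Leaving out sid2-2 mock replicate 3, an alternative chosen after seeing the data, gave 103 lower, 7 higher and 100 among those raised in Col0. Leaving out 1 of the 12 arrays gave 27 to 65 lower, 0 to 6 higher and 27 to 64 among those raised in Col0. The lower count moved by over 1.5 times without safener treated 4tga replicates 1, 2 and 3 (39, 29 and 36), 4tga mock replicates 1 and 3 (34 and 27), safener treated Col0 replicate 3 (32) and Col0 mock replicates 1, 2 and 3 (38, 37 and 36). The higher count was 0 without Col0 mock replicate 2, with 382 higher at an unadjusted p under 0.05.

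With a replicate block the counts were 57 lower, 8 higher and 56 among those raised in Col0, and 60 of the 68 calls were kept. The labels do not say whether the numbers pair the samples, so the block has no stated basis in the design. Of the 68 calls, 23 lower and 0 higher ones were kept under each of the 23 alternatives in which they were tested. Not every call was tested in each, with 54 of the 68 tested at a mean log2 value of at least 6. All calls that could be tested kept their sign. With blanks set to each array's lowest listed value, 31 of 68 were kept. Among genes named without a call, PDF1.2, AT1G26380 and PRA1.B4 were called under none, while AT1G30700 (adjusted p = 0.0220), AT2G23270 (0.0254) and ATG8H (0.0112) were called with array weights. For UGT74D1, a replicate block gave an adjusted p of 0.0441. Blanks limit the comparison, since they left 8190 probe sets untested.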
